A study of Sorghum bicolor with 12 samples.

Results

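CACTA elements are DNA transposons named after the bases at the ends of their terminal inverted repeats. The autonomous copies encode the proteins that cut the element out and insert it elsewhere, known in plants as the TNPA, TNPD and TNP2 types and best studied in the En/Spm system of maize. Non-autonomous copies rely on those proteins, and grass CACTA elements are known to carry genes or gene fragments of the host between their ends. The loci described here are the annotated sorghum genes that the study listed as CACTA-related, that have a probe on its array and that it did not also list as related to LTR retrotransposons. The list held 558 distinct loci, of which 30 were also LTR-related and a further 6 had no probe, which left 522 members of 35465 annotated loci with a probe. Each member had 1 probe, and the probe sequences were not used here.

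The arrays measured RNA of entire 2-week-old seedlings of the sweet sorghum cultivar Keller and the grain sorghum cultivar BTX623, placed in a 5% sucrose solution and collected at 0, 2 and 6 h. Each of the 6 groups had 2 arrays from separate biological repeats, 12 arrays in all, lying on 3 slides. The 0 h seedlings were the starting point, with no time in sucrose, and the only control. No seedlings kept without sucrose for the same hours were analysed, so time in sucrose and time of day cannot be told apart. In entire seedlings, fewer cells of a type and less RNA per cell cannot be told apart either. The defining transcripts of green C4 tissue, those of phosphoenolpyruvate carboxylase (Sb10g021330), NADP-malic enzyme (Sb03g003220) and the Rubisco small chain (Sb05g003480, itself a member), were well above background on 12 of 12 arrays.

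By the coordinates of the study's lists, whose genome build is not given in the sources used here, 504 members lay entirely within a listed CACTA element, 15 held an element within their own span, 1 overlapped one in part and 2 overlapped none. The members were small beside the elements around them. Their median length was 1352.5 bp, against a median of 21219 bp for the element that contained a member. Overlapping elements were joined into regions, and 314 regions held members. In these, 190 members were the only one of their region, 142 shared it with 1 other member and 188 lay in 53 regions of 3 or more, the fullest of which held 7. Members of 1 region share their sequence surroundings and are not independent of each other. Every chromosome carried members, the most on chromosome 5 with 90 and the fewest on chromosome 6 with 32.

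A member was called detected in a cultivar when, at 1 or more of the 3 times, the scanner software marked its probe as well above background on both replicate arrays. By this rule 334 of 522 members (64.0%) were detected in Keller and 329 (63.0%) in BTX623, 317 of them in both. Other annotated loci, those in neither transposon list, were detected more often, 78.2% in Keller and 77.0% in BTX623. LTR-related loci lay between, at 69.5% and 67.6%. No test was run on these shares. On all 12 arrays the share of members well above background was below that of LTR-related loci, which was in turn below that of other loci.

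**Figure D1:**
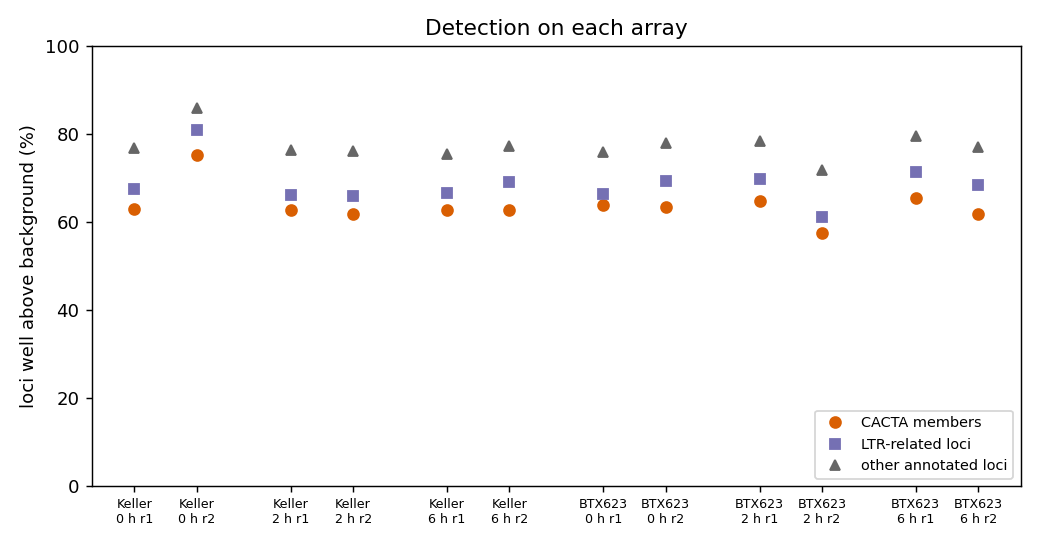
Percent of loci well above background on each of the 12 arrays (r1 and r2 are the 2 replicates of a group) for the 522 members, 1245 LTR-related loci and 33669 other annotated loci. Members ranged from 57.5% to 75.1% and were the lowest of the 3 sets on every array, and all 3 sets peaked on the second Keller 0 h array.

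The second Keller 0 h array stood apart, with 392 members well above background, where the other 5 Keller arrays had 322 to 329 and the 6 BTX623 arrays 300 to 342. The rise was not particular to the members, since LTR-related loci reached 80.8% and other loci 85.9% on that array. With the 2 h and 6 h arrays alone, an alternative chosen after seeing the data, 319 members were detected in Keller and 318 in BTX623.

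At the extremes, 272 members (52.1%) were well above background on all 12 arrays, against 67.4% of other loci, and 105 (20.1%) on 0 arrays, against 10.5% of other loci. By this detection rule there were 17 members detected in Keller only (3.26%, where 3.47% of all annotated loci were) and 12 in BTX623 only (2.3%, where 2.24% of all annotated loci were). Both the share and the split depended on the rule. By the positive and significant flag 37 were Keller only and 7 BTX623 only, together 8.43% of members against 4.53% of other loci, and with at least 1 array well above background 10.9% of members and 6.86% of other loci were in 1 cultivar only. With replicate 2 alone the split was 57 Keller only and 9 BTX623 only (12.6%, against 8.9% of other loci). With replicate 1 alone it was 16 and 29 (8.62%, against 6.47%). Other loci tilted the same way. By the flag 3.07% of them were Keller only and 1.46% BTX623 only. With replicate 2 alone these shares of other loci were 7.64% and 1.25%, and with replicate 1 alone 2.15% and 4.33%. A single member, Sb10g013700, was well above background on all 6 arrays of 1 cultivar, BTX623, and on 0 arrays of the other. Of other loci 0.327% showed this pattern. The opposite was shown by 0 members and by 0.205% of other loci.

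Levels below are scaled signals, that is, the processed signal of an array divided by the 75th percentile of that array and multiplied by 511.2, the geometric mean of the 12 percentiles. The median member had a scaled signal of 39.7, against 53.1 for the median LTR-related locus and 123 for the median other locus. Single probes cannot be ranked against each other by signal, so these medians only describe the lists. In mean level, 39.7% of members lay below the lower quartile of other loci and 17.8% above their upper quartile.

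The members grouped by the wording of their annotation. The largest group, 337 loci, had no named function, and 211 of these were detected in Keller, BTX623 or both. Loci annotated as transposon proteins were seldom detected. Of 17 members annotated as CACTA transposon proteins 6 were detected (35.3%), and of 16 annotated as other transposon proteins 3 were (18.8%). Among members that resembled ordinary host genes, 19 of 21 defence and stress loci, 13 of 15 signalling loci, 11 of 12 loci of ribosomes, chromatin and cell division, 4 of 4 plastid loci, 39 of 45 loci with other named functions, 20 of 26 transcription factors, 9 of 12 loci of transport and sugar metabolism and 11 of 17 of specialized metabolism (64.7%) were detected. Of all other loci 80.4% passed the same rule, and no difference between roles was tested.

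**Figure D2:**
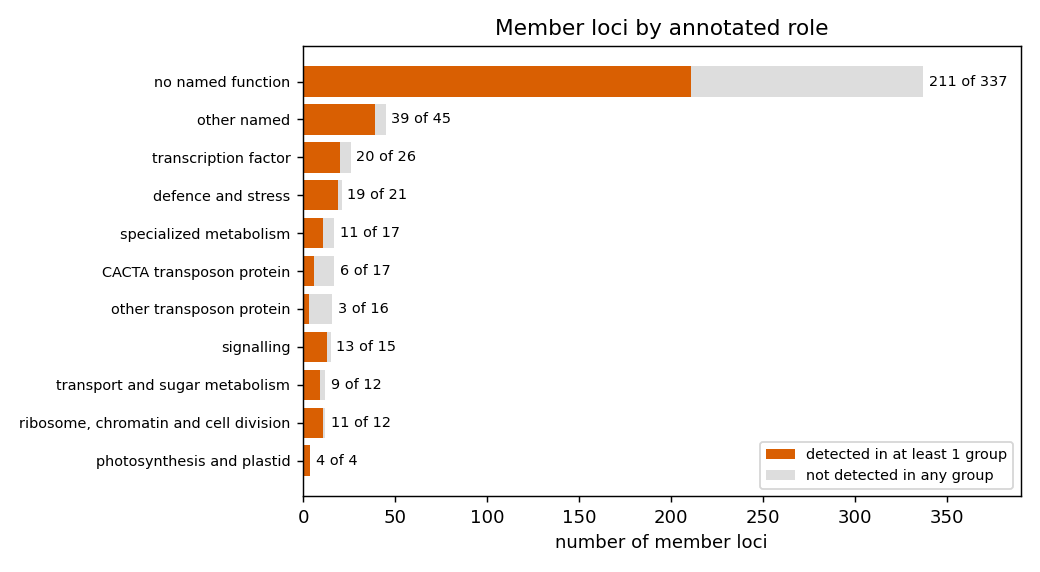
Number of member loci in each annotated role, split into detected loci (well above background on both replicates of any of the 6 groups) and the rest. The 2 transposon protein roles had the lowest detected shares, 6 of 17 and 3 of 16.

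The 6 detected loci annotated as CACTA transposon proteins are those closest to the machinery of transposition. Sb01g021625, annotated as an En/Spm sub-class protein, read 118 and 224 at 0 h, 313 and 254 at 2 h and 411 and 213 at 6 h in Keller, and 348 and 160, 142 and 205, and 142 and 225 at the same times in BTX623. The 2 arrays of a group differed by as much as the cultivars did, and the cultivars overlapped. Sb02g007922, annotated as TNP2-like and so resembling the transposase, ranged from 70.6 to 198 on the Keller arrays and from 55.6 to 217 on the BTX623 arrays. Sb02g008145 ranged from 25.4 to 70.3 in Keller and from 20.4 to 75.2 in BTX623, and Sb05g006330 from 20.1 to 38.0 in Keller and from 14.5 to 30.4 in BTX623. These 4 loci were well above background on all 12 arrays. Sb06g000245 was so on 1 Keller array and 4 BTX623 arrays, and Sb09g005527 on 5 Keller arrays and 4 BTX623 arrays. None of the 6 was called in any comparison, and their differences between Keller and BTX623 over the 3 times lay between -0.36 and 0.35 on the log2 scale.

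The tests took in the 346 members (66.3%) detected in either cultivar, where the same filter passed 72.0% of LTR-related loci and 80.4% of other loci. A locus was called when its change was at least 2-fold with a Benjamini-Hochberg adjusted p under 0.05 over all probes tested (limma). Changes are given as log2 differences with their standard errors. Over the 5 comparisons 50 members were called at least once, and the like share of all probes is not given here.

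Between the cultivars, averaged over the 3 times, 21 of the 346 tested members were called (6.07%), 10 higher and 11 lower in Keller than in BTX623. Of all probes tested 5.0% were called, 1.98% higher and 3.02% lower, so the members' share lay near that of the array as a whole. The 6 Keller arrays and the 6 BTX623 arrays did not overlap for 19 of the 346, where they did not for 5.22% of all probes with a value on every array. These 19 included 15 of the 21 called. Each of the 21 had the same sign in the 3 pairs of arrays of 1 time that shared a slide, a description only, since the calls rest on the same arrays. Without any scaling between arrays 15 were called (4.34%, where 3.73% of all probes were), 3 higher and 12 lower. The size of the differences depended on the background correction. After normexp with an offset of 50 it was smaller for all 19 cultivar differences of the members chosen by rule, among them -3.04 for Sb04g010720, against -6.02 in the scaled signals. An added offset of this size by itself shrinks log2 differences of dim probes, so this cannot show which size is right. The probes were designed on annotation of the BTX623 genome and on ESTs, so a lower level in Keller and a poorer match of its transcript to the probe cannot be told apart.

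The members lower in Keller included the largest difference. Sb04g010720, a predicted protein of no named function on chromosome 4 (14996463 to 14999445, minus strand), had a scaled signal of 5.48 to 12.2 with a median of 8.39 on the 6 Keller arrays, and of 454 to 685 with a median of 495 on the 6 BTX623 arrays. The ranges lay far apart, with a log2 difference of -6.02 ± 0.22 (SE, adjusted p = 6.2e-07). Sb10g010060, an uncharacterized protein on chromosome 10 (12306678 to 12308956), ranged from 3.48 to 24.4 (median 13.6) in Keller and from 65.4 to 462 (median 340) in BTX623. Its log2 difference was -4.62 ± 0.46 (adjusted p = 0.00025), and the cultivars did not overlap.

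Sb10g013700, which resembles a rice protein of no named function, was not well above background on any Keller array, where it read 2.04 to 7.69, and read 8.05 to 268 (median 92.3) in BTX623. Against the lowest signal of a probe well above background it was at least 7.11-fold lower in Keller. The test used the signals as read, with a log2 difference of -4.43 (adjusted p = 0.0029). Sb02g002130, annotated as pathogenesis-related protein 1, a secreted protein widely used as a marker of plant defence, was also not well above background on any Keller array, at 2.33 to 4.83, and was so on 5 BTX623 arrays, at 5.36 to 363 (median 81.1). It was at least 6.63-fold lower in Keller, and the log2 difference tested on the signals as read was -4.31 (adjusted p = 0.021). This call was lost without BTX623 0 h replicate 2, Keller 0 h replicate 1 or any of the 4 Keller arrays of 2 h and 6 h. Sb09g008097 was the third called member not well above background on any Keller array, at 1.35 to 2.40 in Keller and 5.99 to 14.2 in BTX623. It was at least 1.09-fold lower in Keller. Its adjusted p of 0.00056 belongs to the signals as read, not to this bound.

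For 2 more members lower in Keller the ranges of the cultivars were also apart. Sb06g003941 ranged from 7.87 to 24.1 in Keller and from 186 to 282 in BTX623, a log2 difference of -3.88 ± 0.27. Sb08g003150, a predicted protein that spans 3427867 to 3450366 on chromosome 8 and holds an element within it, ranged from 22.2 to 29.7 in Keller and from 125 to 181 in BTX623, a log2 difference of -2.64 ± 0.16. The adjusted p was 2.6e-05 for Sb06g003941 and 1.1e-05 for Sb08g003150. Among members whose cultivars overlapped, Sb05g022730 read 11.4 to 54.4 in Keller and 45.1 to 851 in BTX623 (log2 difference -2.79 ± 0.30, adjusted p = 0.00037). Sb04g036340 read 4.61 to 40.6 in Keller and 16.2 to 539 in BTX623, and its call (adjusted p = 0.046) remained only without a BTX623 0 h array, 2 of the 12 fits with 1 array left out. The other members lower in Keller were Sb05g022040, a GRF zinc finger protein that read 9.15 to 15.2 in Keller and 42.3 to 81.2 in BTX623 without overlap (log2 difference -2.22 ± 0.18, adjusted p = 6.4e-05), and Sb02g029110.

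**Figure D3:**
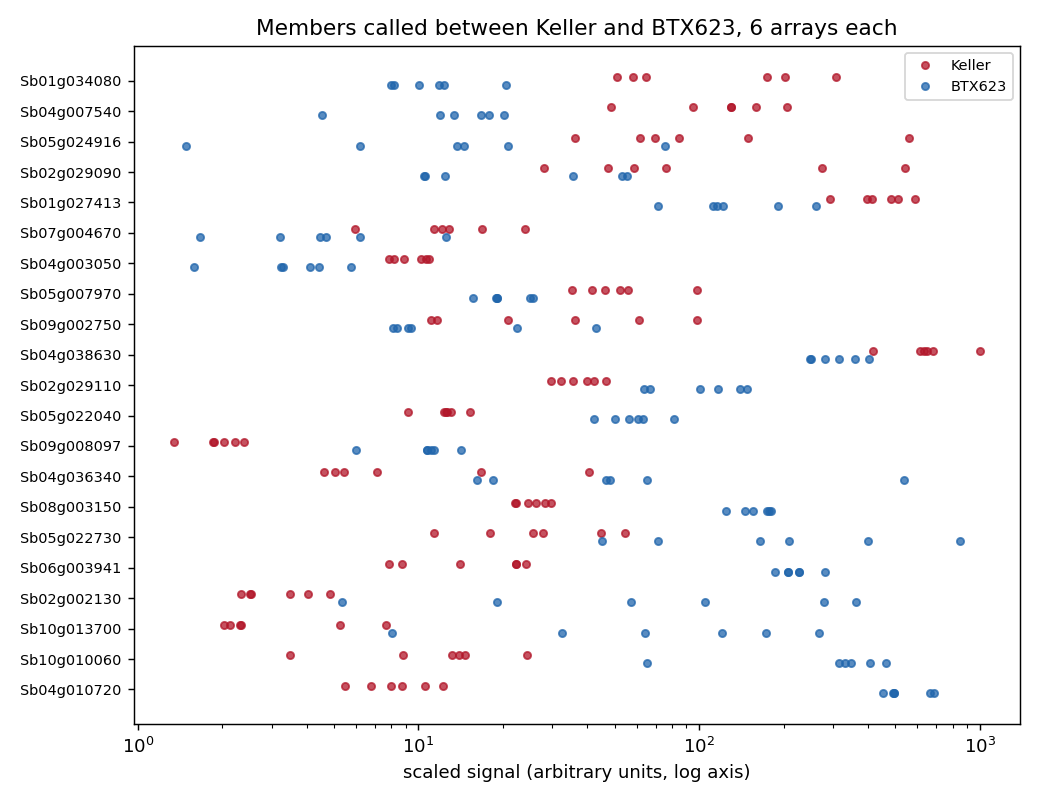
Scaled signal (log axis) of the 21 members called between Keller and BTX623 averaged over the 3 times, 1 point for each of 6 arrays per cultivar, ordered by log2 difference with the loci highest in Keller at the top. The separation was widest for Sb04g010720 at the bottom, at 5.48 to 12.2 in Keller and 454 to 685 in BTX623.

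Among the members higher in Keller, Sb01g034080, an uncharacterized protein, had the largest difference. It ranged from 51.0 to 307 (median 119) on the Keller arrays and from 7.96 to 20.5 (median 10.9) on the BTX623 arrays, and the log2 difference was 3.34 ± 0.52 (adjusted p = 0.0040). Sb04g007540, which resembles a rice protein of no named function, ranged from 48.7 to 205 (median 130) in Keller and from 4.54 to 20.2 (median 15.1) in BTX623, a log2 difference of 3.19 ± 0.29 (adjusted p = 0.00015). Neither locus overlapped between the cultivars. After normexp background correction the differences were 1.51 for Sb01g034080, which was then not called, and 1.43 for Sb04g007540.

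Sb05g024916 is annotated as a putative taxane 10-beta-hydroxylase, a cytochrome P450 of taxol synthesis in yew. It read 36.1 to 562 (median 77.2) in Keller and 1.49 to 75.9 (median 14.2) in BTX623, with overlap and a log2 difference of 3.09 ± 0.56 (adjusted p = 0.0095). Sb01g027413 read 294 to 586 in Keller and 71.3 to 261 in BTX623 without overlap (log2 difference 1.71 ± 0.28, adjusted p = 0.0052). Sb05g007970 read 35.1 to 98.4 in Keller and 15.6 to 25.6 in BTX623, also without overlap. Sb04g003050 was not well above background on any BTX623 array and was so on 2 Keller arrays, so that no fold is given for it, and its call was lost without either Keller 2 h array or Keller 6 h replicate 1. Sb07g004670 (1.49 ± 0.35, adjusted p = 0.038) and Sb09g002750 (1.12 ± 0.25, adjusted p = 0.031) were higher in Keller with overlap. The call on Sb07g004670 remained only without BTX623 0 h replicate 2 or BTX623 6 h replicate 2, and that on Sb09g002750 only without BTX623 2 h replicate 2 or Keller 6 h replicate 1. The member Sb02g029090 is described with its region.

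At 0 h alone, 10 of the 346 members were called, 1 higher and 9 lower in Keller (2.89%), where 2.18% of all probes were called, 0.72% higher and 1.46% lower. All 10 were among the 21 called on the average, with the same sign. The locus higher in Keller was Sb04g007540, and the lowest were Sb04g010720, Sb10g013700 and Sb10g010060. With the slide as a block, Sb10g013700 (adjusted p = 0.093) and Sb10g010060 (adjusted p = 0.082) were not called. Their calls were also lost without any of the 4 arrays of 0 h, with the Keller 2 h arrays as well for Sb10g013700 and BTX623 6 h replicate 1 for Sb10g010060. Sb04g007540 read 48.7 and 95.5 in Keller and 4.54 and 12.0 in BTX623 at 0 h, and its call was lost without Keller 0 h replicate 2 or BTX623 0 h replicate 1. The count depended on single arrays and was 4 without Keller 0 h replicate 2, 6 without Keller 0 h replicate 1, and 5 without either BTX623 0 h array. These fits called 1.21% to 1.68% of all probes, against 2.18% with all arrays. With the 4 arrays of 0 h alone in the fit 1 was called, where 0.21% of all probes were.

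Of the 53 regions with 3 or more members, 19 held a called member and 3 held 2 called members. A like count for runs of other loci is not given here. A region on chromosome 2 held 3 members spanning 64267238 to 64273752, and 2 of them differed between the cultivars in opposite directions. Sb02g029090, on the plus strand, read 28.0 and 76.2 at 0 h, 273 and 543 at 2 h and 47.6 and 58.6 at 6 h in Keller, and 10.6 and 12.4, 55.5 and 35.7, and 53.3 and 10.5 in BTX623. It was higher in Keller with overlap (log2 difference 2.09 ± 0.44, adjusted p = 0.020), a call lost without BTX623 0 h replicate 1, BTX623 2 h replicate 2, Keller 0 h replicate 2, Keller 2 h replicate 2 or either Keller 6 h array. Sb02g029110, on the minus strand of the same region, read 29.7 to 46.5 in Keller and 63.6 to 149 in BTX623 without overlap and was lower in Keller (log2 difference -1.43 ± 0.22, adjusted p = 0.0038). Sb02g029100, between them, was well above background on 0 arrays.

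The region of Sb02g002130 on chromosome 2 held 6 members spanning 2175436 to 2206803, 2 of which are annotated as pathogenesis-related protein 1. The second, Sb02g002150, was bright in both cultivars, at 2734 to 6312 in Keller and 1114 to 4328 in BTX623, and was not called (log2 difference 0.57 ± 0.30, adjusted p = 0.37). The other 4, including a putative reverse transcriptase, were well above background on at most 1 array each. In a region on chromosome 4 whose members span 67996964 to 68008026, the ferredoxin-like Sb04g038630, resembling the iron-sulfur proteins that carry electrons, read 418 to 1004 in Keller and 248 to 402 in BTX623 without overlap (log2 difference 1.08 ± 0.17, adjusted p = 0.0038), a call lost without Keller 0 h replicate 1 or Keller 6 h replicate 1 and with the slide as a block (0.98, under 2-fold). Its neighbour Sb04g038640, similar to a cell division inhibitor, differed by -0.10 ± 0.13 (adjusted p = 0.77).

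Over time, 8 of the 346 members were called at 2 h against 0 h on the mean of the cultivars (2.31%), 3 higher and 5 lower, where 2.44% of all probes were called, 0.97% higher and 1.46% lower. At 6 h against 0 h 31 were called (8.96%), 10 higher and 21 lower, where 9.11% of all probes were called, 3.67% higher and 5.45% lower. Arrays of the same number deviated together. With the replicate number as a block, 22 members were called at 2 h (6.36%, where 5.64% of all probes were). At 6 h 47 were called with this block (13.6%, where 13% of all probes were). These included all 8 and all 31. After normexp background correction the 2 h calls were 0 higher and 5 lower (1.45%, where 1.75% of all probes were called). Of the 8 called at 2 h, 6 were called in the same direction at 6 h. The 4 arrays at 6 h and the 4 at 0 h did not overlap for 56 of the 346 members, where they did not for 20.5% of all probes, and those at 2 h and 0 h did not for 42, where they did not for 12.6% of all probes. The 31 had the same sign in both cultivars, within slide 1 for Keller and within slide 3 for BTX623, which describes the arrays that gave the calls.

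Some members of specialized metabolism and of defence fell at 6 h. Of 11 tested members in specialized metabolism 3 fell and 1 rose, with a median log2 change of -0.82. Over all probes 5.45% fell and 3.67% rose, with a median of 0.02, and no role was tested as a group. Sb09g025540, annotated as the O-methyltransferase ZRP4, a root-preferential methyltransferase in maize, had the largest fall. It read 7467 at 0 h, 1986 and 2868 at 2 h and 172 and 266 at 6 h in Keller, and 8873 and 2031, 3832 and 3334, and 106.6 and 221 in BTX623. Its spot on Keller 0 h replicate 2 was an outlier and was left out. The 4 arrays of 6 h lay below all of 0 h, with a log2 change of -4.96 ± 0.52 (adjusted p = 0.0016).

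Sb08g022310, phytoene synthase 2, which catalyses the entry step of carotenoid synthesis, read 1473 and 700 at 0 h, 340 and 499 at 2 h and 111 and 138 at 6 h in Keller, and 1296 and 1061, 322 and 1380, and 87.3 and 145 in BTX623. The 6 h arrays lay below all 0 h arrays in both cultivars (log2 change -3.21 ± 0.45, adjusted p = 0.0033). The taxane hydroxylase-like Sb05g024916 fell too (-2.92 ± 0.68, adjusted p = 0.025), with overlap between the times and a call lost without replicate 1 of any 0 h or 6 h group. It and Sb05g022730 (-2.40 ± 0.36, adjusted p = 0.0046) were the 2 members called both between the cultivars and at 6 h. The 2-oxoglutarate-dependent dioxygenase Sb07g020370 rose at 6 h. It read 1178 and 806 at 0 h, 1976 and 847 at 2 h and 4358 and 1972 at 6 h in Keller, and 840 and 642, 2244 and 791, and 3612 and 1535 in BTX623, with no overlap between 6 h and 0 h (1.64 ± 0.46, adjusted p = 0.049), a call that remained only without a BTX623 2 h array.

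Of 19 tested defence and stress members 3 fell at 6 h and 0 rose, with a median log2 change of -0.50, beside the same 5.45%, 3.67% and 0.02 over all probes. A region on chromosome 8 whose members span 4247961 to 4262332 held 3 loci annotated as harpin-induced protein 1, a family induced in plant responses to bacterial elicitors. Sb08g003690 read 2840 and 2936 at 0 h, 1251 and 1290 at 2 h and 539 and 337 at 6 h in Keller, and 2710 and 2840, 1745 and 1737, and 1031 and 450 in BTX623. The arrays of 6 h and 0 h did not overlap (log2 change -2.39 ± 0.26, adjusted p = 0.0013). Sb08g003705 changed by -1.81 ± 0.49 (adjusted p = 0.042), a call that remained only without a Keller 2 h array or BTX623 6 h replicate 1. Sb08g003710 changed by -0.44 ± 0.30 (adjusted p = 0.38). The third defence member that fell was the thaumatin-like Sb10g002870 (-1.41 ± 0.35, adjusted p = 0.033).

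Of 4 plastid members and of the loci for sugar handling, the aldolase alone was called. Sb10g023850, fructose-bisphosphate aldolase, an enzyme that glycolysis and the Calvin cycle both use, read 374 and 882 at 0 h, 49.4 and 211 at 2 h and 27.6 and 17.2 at 6 h in Keller, and 522 and 881, 61.9 and 140, and 29.9 and 33.4 in BTX623. Both later times lay below all 0 h arrays, by -2.68 ± 0.51 at 2 h (adjusted p = 0.031) and by -4.57 ± 0.51 at 6 h (adjusted p = 0.0014). The 2 h call remained only without Keller 2 h replicate 2 or BTX623 0 h replicate 1, and the 6 h call remained in all 12 such fits. In the same region, the copine-like Sb10g023860 changed by -0.21 ± 0.22 at 6 h and was not called. The sucrose transporter Sb01g022430 was dim, at 6.87 to 24.8 in Keller and 5.43 to 22.3 in BTX623, and its 6 h change was 0.66 ± 0.48 (adjusted p = 0.41). Hexokinase-10, Sb09g018720, was well above background on 0 arrays.

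Rubisco small chain (Sb05g003480), the nuclear-encoded subunit of the enzyme that fixes carbon dioxide, read 39954 to 68897 in Keller and 42884 to 73287 in BTX623. Its 6 h change of -0.51 ± 0.17 did not pass the test (adjusted p = 0.086). The 3 other plastid members resemble genes of the plastid genome, photosystem I apoproteins A1 (Sb04g021186) and A2 (Sb10g024935) and a plastoquinone oxidoreductase subunit (Sb10g024940). Their 6 h changes lay between -0.17 and -0.02. Whether the probes of these 3 could detect transcripts of the plastid genome itself was not tested.

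Transcription factors changed in both directions, with 2 of 20 tested higher and 2 lower at 6 h. The Myb-like Sb08g018370 had the largest rise of any member. It read 86.6 and 94.1 at 0 h, 316 and 213 at 2 h and 593 and 517 at 6 h in Keller, and 159 and 41.3, 490 and 174, and 645 and 614 in BTX623, a log2 change of 2.79 ± 0.44 at 6 h (adjusted p = 0.0057) with no overlap. Sb05g003660, with the CCT motif of flowering time and clock proteins, rose at both times, by 1.5 ± 0.32 at 2 h (adjusted p = 0.047, remaining only without BTX623 0 h replicate 1 or BTX623 2 h replicate 2) and by 1.61 ± 0.32 at 6 h (adjusted p = 0.014). The C2H2 zinc finger Sb01g031900, which resembles ZFP36 of rice, changed by -3.01 ± 0.59 at 6 h (adjusted p = 0.013).

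**Figure D4:**
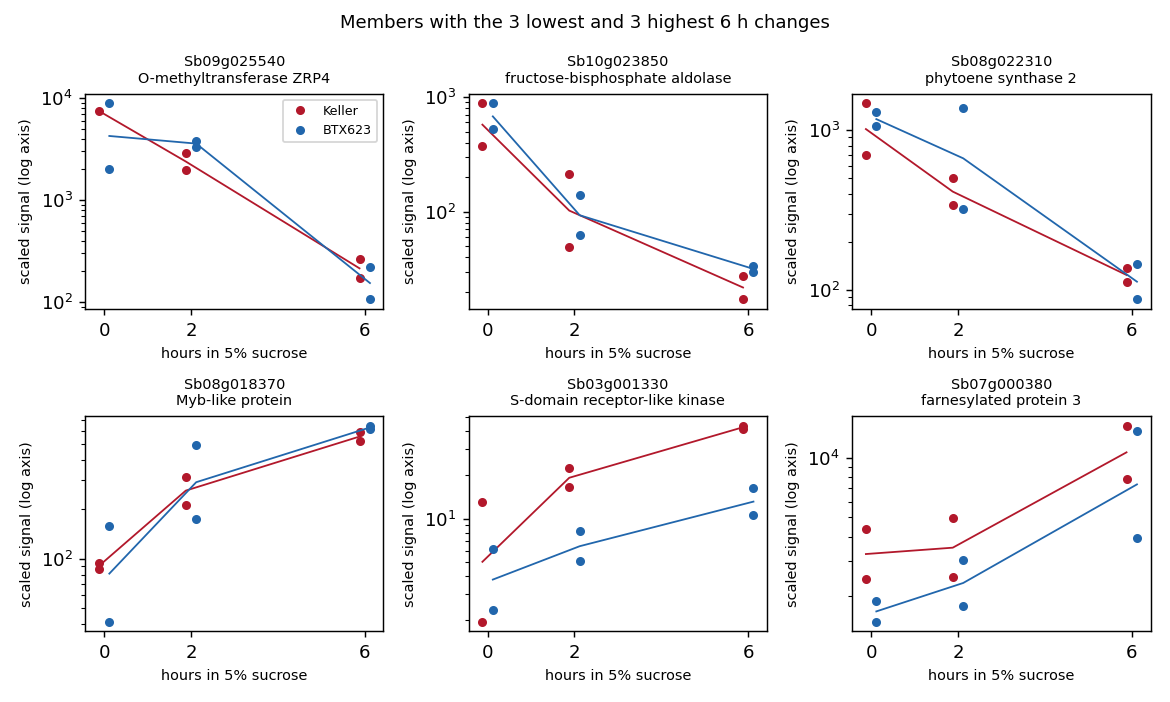
Scaled signal (log axis) against hours in 5% sucrose for the 3 members with the largest fall and the 3 with the largest rise at 6 h, 1 point per array and a line through the geometric mean of each cultivar. In the upper row the 6 h arrays lay below all 0 h arrays, and Sb08g018370 in the lower row rose in both cultivars.

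Sb03g001330 and Sb07g000380 also rose at 6 h. The S-domain receptor-like kinase Sb03g001330, of a family of cell-surface kinases, read 1.95 and 13 at 0 h, 16.4 and 22.2 at 2 h and 41.5 and 43.6 at 6 h in Keller, and 2.35 and 6.15, 8.22 and 5.06, and 16.3 and 10.5 in BTX623 (2.43 ± 0.59, adjusted p = 0.029). It was well above background on 5 Keller and 3 BTX623 arrays, and the times overlapped across the cultivars. Its call was lost without replicate 1 of either 0 h group or any 6 h array, and after normexp background correction the change was 0.22 and not called. Farnesylated protein 3 (Sb07g000380) read 2448 and 4364 at 0 h, 4946 and 2504 at 2 h and 7816 and 14504 at 6 h in Keller, and 1491 and 1891, 3037 and 1796, and 3956 and 13614 in BTX623, so that each cultivar's 6 h arrays lay above its 0 h arrays (1.92 ± 0.44, adjusted p = 0.024). That call was lost without replicate 1 of either 0 h group or replicate 2 of either 6 h group.

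At 2 h the members with the largest falls beside the aldolase were neighbours in 1 region of chromosome 3, both uncharacterized proteins. Sb03g004150 (4416528 to 4418639) read 2226 and 3169 at 0 h, 475 and 876 at 2 h and 403 and 712 at 6 h in Keller, and 1537 and 3295, 285 and 765, and 385 and 658 in BTX623. Sb03g004160 (4419954 to 4421876) read 394 and 666 at 0 h, 203 and 191 at 2 h and 294 and 173 at 6 h in Keller, and 342 and 587, 126 and 158, and 237 and 194 in BTX623. For both loci the later arrays lay below all 0 h arrays, with 2 h changes of -2.16 ± 0.41 (adjusted p = 0.033) for Sb03g004150 and -1.52 ± 0.27 (adjusted p = 0.025) for Sb03g004160. Each call was lost without any of 6 arrays, among them both Keller 2 h arrays, Keller 0 h replicate 2, BTX623 0 h replicate 2 and BTX623 2 h replicate 1 for both loci, with Keller 0 h replicate 1 for Sb03g004150 and BTX623 2 h replicate 2 for Sb03g004160. Whether their probes could detect each other's transcripts was not tested.

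The 2 largest rises at 2 h were not called at 6 h. Sb02g029090, described above, changed by 2.51 ± 0.53 at 2 h (adjusted p = 0.044), a call that remained only without a BTX623 6 h array, and by 0.62 ± 0.53 at 6 h (adjusted p = 0.49). Sb09g002750, an uncharacterized protein, read 11.1 and 11.7 at 0 h, 61.3 and 98.2 at 2 h and 20.8 and 36.3 at 6 h in Keller, and 8.09 and 9.19, 22.5 and 42.8, and 9.38 and 8.38 in BTX623. Its 2 h arrays lay above all 0 h arrays (2.31 ± 0.31, adjusted p = 0.0095), and the 6 h change was 0.66 ± 0.31 (adjusted p = 0.20). After normexp background correction the 2 h changes were 0.95 for Sb02g029090 and 0.46 for Sb09g002750, and neither was called. In the region of Sb09g002750, Sb09g002760 rose at 6 h (1.33 ± 0.35, adjusted p = 0.038, with 5 of the 12 fits keeping the call). After normexp this change was 0.22 and not called. Sb09g002740 and Sb09g002770 were not called.

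The counts over time moved with single arrays, and so did the shares of all probes called. In the fits below these shares were 0.431% to 1.63% at 2 h, against 2.44% with all arrays. At 6 h they were 5.78% to 7.07%, against 9.11%. At 2 h the 8 calls became 1 without Keller 2 h replicate 1, 3 without Keller 2 h replicate 2, 2 without BTX623 2 h replicate 1, 4 without BTX623 2 h replicate 2, 3 without Keller 0 h replicate 1, 4 without Keller 0 h replicate 2, 3 without BTX623 0 h replicate 2 and 5 without either Keller 6 h array. At 6 h the 31 calls became 18 without Keller 0 h replicate 1 or BTX623 6 h replicate 1, and 19 without BTX623 6 h replicate 2 or either Keller 6 h array.

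The difference between the cultivars in their 6 h change was tested for each locus, and 0 of 346 members and 0.0% of all probes were called (limma). Before adjustment, 6 members and 293 of all probes passed a p of 0.05 with a difference of 2-fold or more.

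Set against other annotated loci of like signal, the members' shares called lay within 1 percentage point of theirs in each of the 4 comparisons with calls. Other loci were put in 10 classes of equal size by mean level, and their rates were weighted by the number of members in each class. For the cultivars over the 3 times 6.07% of members were called, against 5.23% of other loci so weighted and 4.77% unweighted. At 0 h the shares were 2.89% and 2.14%, at 2 h 2.31% and 2.43%, and at 6 h 8.96% and 9.24%, members first. The median size of the cultivar difference was 0.27 in members and 0.26 in other loci so weighted, and that of the 6 h change 0.38 in members and 0.40 in other loci. The residual SD between arrays of a group was 0.48 in the median member and 0.42 in other loci so weighted. With the replicate block 8.38% of members and 6.45% of all probes were called between the cultivars over the 3 times, and with the slide block 8.96% and 6.44%. These are descriptions of the list, chosen with earlier results known, and no difference between members and other loci was tested.

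**Figure D5:**
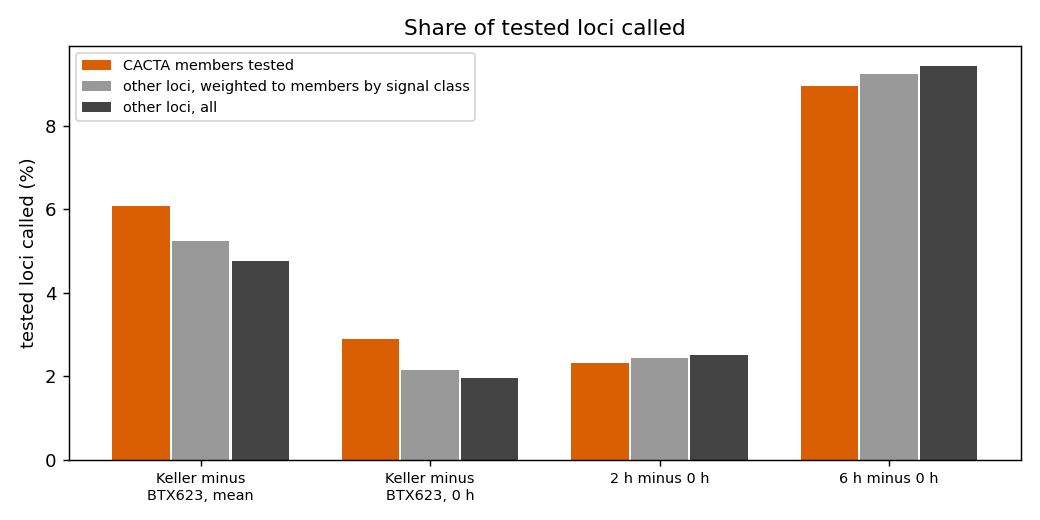
Percent of tested loci called in 4 comparisons, for the 346 tested members, for other annotated loci weighted to the members by signal class, and for all tested other loci. The members lay above other loci in both cultivar comparisons (6.07% against 5.23% over the 3 times) and slightly below them in both time comparisons (8.96% against 9.24% at 6 h). None of these differences was tested.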

How the data were processed

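Total RNA of entire seedlings was labelled with Cy3 and hybridised to a custom 4x44K Agilent design. The authors deposited 1 intensity per spot, the linear processed signal that Feature Extraction 10.7.1.1 gives after background subtraction and detrending within an array, with no normalization between arrays. The deposited flags (other values, 0 or 1) mark spots well above background, positive and significant, saturated or outlying. The deposited series matrix held the same signals. The members were taken from the study's lists of CACTA-related and LTR-related genes. They, the role lists and the tests were chosen with earlier results of these data known.

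Outlier spots were left out, spots of a probe were averaged as log2 signals, and each array's 75th percentile (log2) was subtracted. Of 41977 probes, 31950 passed the filter of being well above background on both replicates of any group. Depth does not apply to arrays, whose number (2 per group) limits the precision. Group means were fitted over all 12 arrays, with no block for repeat or slide, with limma 3.58.1 (R 4.3.3, variance trend), each comparison adjusted by Benjamini-Hochberg, and loci called at an adjusted p under 0.05 and at least 2-fold. Where a locus was not well above background on any array of a cultivar, the bright cultivar's mean log2 level was set against the mean of, per array, the higher of its own signal and the lowest signal of a probe well above background. These bounds were not tested, and the adjusted p values belong to the fit of the signals as read. Tested on simulated data of 31950 probes for the cultivar comparison, the fit called 91 of 100 seeded 8-fold changes, 77 of 100 seeded 4-fold changes and 6 unchanged probes. For the 6 h comparison it called 82, 68 and 10. The simulated noise was independent between arrays, whereas same-numbered arrays of the data deviated together, so these rates need not hold for the data. Tables were handled with Python 3.11.15, numpy 2.4.6 and pandas 2.3.3.

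Named members were the called ones with the largest changes (8 in each direction for the mean cultivar difference, 3 elsewhere), those detected in a single cultivar on all its arrays, detected CACTA proteins, plastid loci, the sucrose transporter, hexokinase and aldolase, and regions of 3 or more members with a call. Others named were chosen after their values were seen. Same-numbered arrays deviated together in all 15 pairs of groups (correlation 0.276 to 0.660), and the methods state biological replicates. The numbers were therefore read as pairs, but only in the replicate block. The main fit, which gave the counts, SEs and adjusted p values unless stated, had no block. Each slide held arrays of both cultivars, but replicate 1 lay on slides 1 and 2 and replicate 2 on slides 2 and 3, so that repeat and slide as the source of the correlation cannot be told apart. Alternatives were no scaling, quantile normalization, normexp background correction (offset 50), the series matrix, other filters, slide and replicate blocks, and each array left out. Probes of unnamed source (1246) and repeat probes (50) were left out.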

Additional observations from a re-analysis of the deposited data

Results flagged for a closer look

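Of 34 sets of 6 arrays of 1 cultivar examined for an array far from the others, 3 had one, where chance gives about 1 in 20. On Keller 0 h replicate 2, 392 members were well above background, where the rest of the Keller arrays gave 322 to 329. Sb04g007540, at 48.7 or higher on the Keller arrays, read 4.54 on BTX623 0 h replicate 1 and 12.0 to 20.2 on the other 5 BTX623 arrays. Sb10g010060, at 24.4 or lower on the Keller arrays, read 65.4 on BTX623 2 h replicate 1 and 315 to 462 on the other 5 BTX623 arrays. The causes were not tested.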

How the results depend on the processing

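Shares in brackets are those of tested members and then of all probes. For the cultivars over the 3 times, the 21 calls became 9 after normexp background correction (2.6% and 2.06%). They became 5 among probes well above background on all 12 arrays (1.84% and 2.65%) and 33 at 2-fold with no test (9.54% and 7.91%). At 0 h, the 10 calls became 1 after normexp (0.289% and 0.648%) and 2 among probes well above background on all arrays (0.735% and 0.766%). They became 1 with only the arrays compared (0.289% and 0.21%) and 41 at 2-fold with no test (11.8% and 9.4%). At 2 h, the 8 became 0 with no scaling (0.0% and 0.507%) and 5 after normexp (0 higher, 1.45% and 1.75%). They became 15 with the slide as a block (4.34% and 5.49%) and 22 with the replicate block (6.36% and 5.64%). They became 4 with only the arrays compared (1.16% and 1.19%) and 38 with no test (11% and 9.15%). At 6 h, the 31 became 16 with no scaling (4.62% and 3.57%) and 15 after normexp (4.34% and 5.58%). They became 47 with the replicate block (13.6% and 13%). They became 20 with only the arrays compared (5.78% and 6.59%) and 56 with no test (16.2% and 15.7%). For the 6 h change between cultivars, 43 members passed 2-fold with no test (12.4% and 6.13%), against 0. With the replicate block 29 members were called over the 3 times (8.38% and 6.45%) and 11 at 0 h (3.18% and 3.21%). The pairing therefore changed no other count by over 1.5 times. Leaving out 1 array gave 16 to 23 calls over the 3 times and 4 to 10 at 0 h. It gave 1 to 11 at 2 h, 18 to 34 at 6 h and 0 to 0 for the difference of changes. Those fits called 4.12% to 5.11% of all probes over the 3 times and 1.21% to 1.89% at 0 h. They called 0.431% to 2.65% at 2 h, 5.78% to 8.86% at 6 h and 0.0% for the difference of changes. Detection in 1 cultivar only covered 44 members by the positive and significant flag and 57 by at least 1 array, against 29, and 45 to 66 with 1 replicate left out, when 354 to 396 were detected in Keller and 348 to 367 in BTX623. No scaling moved the median of all probes to -0.12 for the cultivars, 0.20 at 2 h and 0.13 at 6 h, and normexp to 0.127 for the cultivars, 0.148 at 0 h, -0.145 at 2 h and -0.102 at 6 h (log2). Of 55 calls on named members, 55 remained with the replicate block, 51 with the slide block, 28 with no scaling and 25 after normexp, and none reversed. The causes were not tested. Signal over background limits the rest, since 145 members were well above background on 1 to 11 of the 12 arrays and 105 on 0.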

Other observations

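The longest members had the highest detected share, 41 of 51 over 5000 bp and 112 of 145 over 2000 and up to 5000 bp. Shorter classes had 69 of 127 over 1000 and up to 2000 bp, 67 of 106 over 500 and up to 1000 bp, and 57 of 93 up to 500 bp. By chromosome the detected share ran from 55.4% on chromosome 2 to 83.0% on chromosome 3. The fullest region, on chromosome 5, held 7 members spanning 11267485 to 11291822 and annotated as OCL3, an epidermal homeodomain protein of maize, or as homeodomain transcription factors. The 3 OCL3 loci were well above background on at most 1 array each and the 4 homeodomain loci on all 12. Among these, Sb05g006724 read 1861 to 3243 in Keller and 1381 to 1752 in BTX623 without overlap, and was not called (log2 difference 0.58 ± 0.18, adjusted p = 0.12). Sb05g006726 changed at 6 h by -1.0 ± 0.26 (adjusted p = 0.039), a call that remained in 1 of the 12 fits with 1 array left out, that without Keller 6 h replicate 1, and was lost with the slide as a block (-0.95, under 2-fold).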
